A study of Nothobranchius furzeri with 168 samples.

Results

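Brain was compared with skin within the same fish in 5 MZCS-0403 females of the turquoise killifish Nothobranchius furzeri, sampled at day 217. The members were all libraries whose labels give this strain, sex and age, 5 from brain and 5 from skin, or 10 of the 168 libraries and 5 of the 84 fish of the study. The study profiled RNA of both tissues at several ages in the short-lived strain GRZ-D and in MZCS-0403 and MZM-0403, which live longer. The labels record no treatment and no genetic change for any of these fish. They do not say which brain regions or which part of the body surface were taken, nor when the libraries were prepared or sequenced. Per the labels, brain and skin were taken from each specimen, and the TruSeq RNA v2 kit served for library preparation. The tissue difference was also set against that of 5 MZCS-0403 females of day 287, 5 MZM-0403 females of day 147 and 6 MZCS-0403 males of day 21, all sampled in the same pair of tissues.

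The brain of a teleost fish is built of neurons, radial glia, myelinating oligodendrocytes and microglia, and it keeps dividing progenitors in adult life. The skin is a layered epidermis of keratinocytes and mucous cells over a collagen-rich dermis with scales, pigment cells, vessels and nerve endings. Both are mixtures of cell types, and in bulk RNA fewer cells of a type and less RNA per cell cannot be told apart.

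The deposited table gives whole-number read counts for 26739 gene IDs. The table pairs these IDs with no gene names, and 0 of them matched a RefSeq gene table of the species. Genes are therefore given by their deposited IDs, without names, roles, positions or sequences, and tissue identity could not be checked against defining marker genes. It was checked against whole profiles instead, the mean brain and the mean skin of MZCS-0403 males at day 21. The 5 brain libraries correlated with the brain profile at r = 0.918 to 0.952 and with the skin profile at 0.373 to 0.415, across genes, which are not independent replicates. The 5 skin libraries correlated with the skin profile at 0.902 to 0.938 and with the brain profile at 0.283 to 0.327. Each of the 10 libraries was therefore nearer to the profile of its labelled tissue. Elsewhere in the study, 8 fish had libraries nearer to the other tissue, and fish 7 of the MZCS-0403 females at day 287 is 1 of them. Total counts were 25956811 to 33785855 in brain and 19963567 to 26705412 in skin, so the skin libraries were on the whole less deep. Levels are given as CPM, read counts scaled to the library size after TMM scaling, which multiplied the library sizes by 1.418 to 1.486 in brain and 0.645 to 0.731 in skin. On that scale 3 counts corresponded to 0.0610 to 0.0782 CPM in brain and 0.159 to 0.206 CPM in skin. In fish 3, whose totals were 25956811 in brain and 25927061 in skin, 3 counts were 0.0779 CPM in brain and 0.159 CPM in skin, so this gap came with the TMM factors and not with depth alone.

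Skin RNA was concentrated in far fewer genes than brain RNA. The number of genes that together held 50% of a library's counts was 1288, 1269, 1246, 1287 and 1190 in brain of fish 1 to 5. In skin of the same fish it was 134, 90, 129, 104 and 122. The lowest brain library was thus far above the highest skin library. The means were 1256 ± 40.7 genes in brain and 115.8 ± 18.4 genes in skin (SD, n = 5 each). The brain value was higher in 5 of 5 fish, with an exact two-sided permutation p of 0.0625, the smallest that 5 pairs can give, so this design cannot pass 0.05. Taken as 5 libraries against 5, without the pairing, this measure, the share of the 10 most counted genes and the number of genes above 1 CPM each gave an exact permutation p of 0.00794. That is the smallest p that 5 libraries against 5 can give, and it treats the tissues of the same fish as independent.

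The 10 most counted genes held 4.60% to 5.27% of a brain library, and 16.28%, 23.06%, 16.65%, 20.56% and 15.79% of the skin libraries of fish 1 to 5. Their mean share was 4.88% ± 0.264 in brain and 18.5% ± 3.19 in skin (SD, n = 5 each; exact permutation p = 0.0625, lower in brain in 5 of 5 fish). The single most counted gene took 0.755% to 0.946% of the counts in brain and 2.18% to 4.56% in skin. Of the genes among the 10 most counted, 7 were shared by all 5 brain libraries, 5 by all 5 skin libraries and 0 by all 10 libraries. The skin list was the more varied, with 12 different genes over the 5 brain libraries and 14 over the 5 skin libraries. Both tissues together had 24 different genes, so the brain and skin lists had genes in common.

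More genes were detected in brain. On average 18165.4 ± 41.6 genes exceeded 1 CPM in brain and 16199.2 ± 250 in skin (SD, n = 5 each). The difference was 1966.2 genes, with brain higher in 5 of 5 fish (exact permutation p = 0.0625). CPM here were taken from total counts, so this number moves with the concentration of skin counts in few genes, and the part of that concentration in it was not tested. The plot of cumulative counts shows both features at once, the steep start of the skin libraries and the close bundle of the brain libraries.

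**Figure D1:**
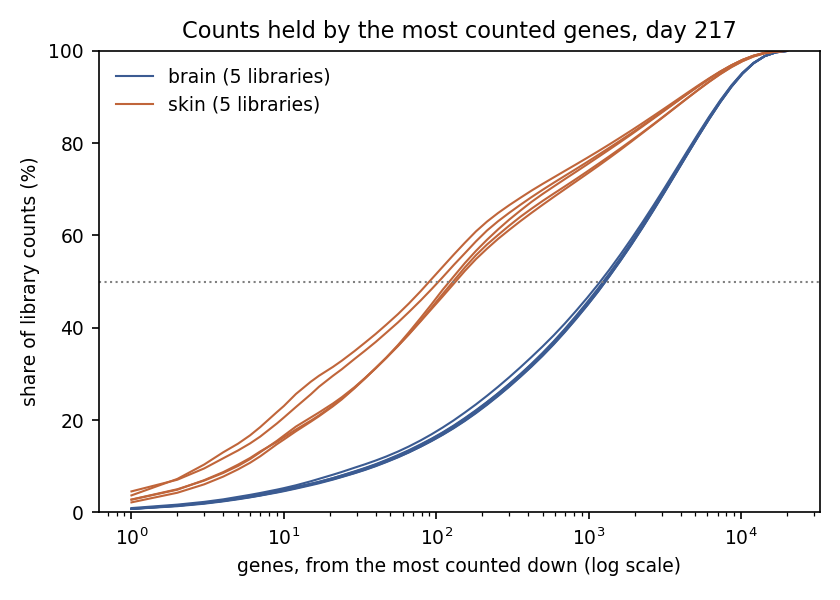
Share of a library's counts (percent, y axis) held by its most counted genes (number of genes, log scale, x axis) for the 5 brain and 5 skin libraries of day 217, 1 line per library. The dotted line marks 50%, which the brain lines cross between 1190 and 1288 genes and the skin lines between 90 and 134 genes.

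Most of the measured transcriptome differed between the tissues. Of the 20408 genes tested with fish as a block, 16402 differed at an adjusted p under 0.05 (80.4%; edgeR quasi-likelihood test, Benjamini-Hochberg adjustment). Of these, 8569 were higher in brain (42% of the genes tested) and 7833 were lower in brain than in skin (38.4%). The near-even split depends on how the libraries are scaled. TMM scaling put the median log2 fold change of brain over skin at 0.09 over all tested genes. Scaling to total counts alone moved that median to 1.18, and then 13413 genes were called higher in brain and 4419 lower. The share of calls that were higher in brain was 52.2% with TMM and 75.2% without it. All fold changes below are relative to the TMM scaling.

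Many of the differences were large. At least 2-fold differences were called for 11852 genes (58.1%), 6056 higher in brain and 5796 higher in skin. At least 16-fold differences were called for 3528 genes (17.3%), 2082 higher in brain and 1446 higher in skin. Between these limits, 1819 genes were 4- to 16-fold higher in brain and 2207 were 4- to 16-fold higher in skin. The brain thus had more genes of the most extreme class and the skin more of the class before it. The median absolute log2 fold change over all tested genes was 1.32, and the extremes were 10.80 and -10.92. In the histogram of fold changes, the far brain side forms a shoulder that the skin side lacks.

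**Figure D2:**
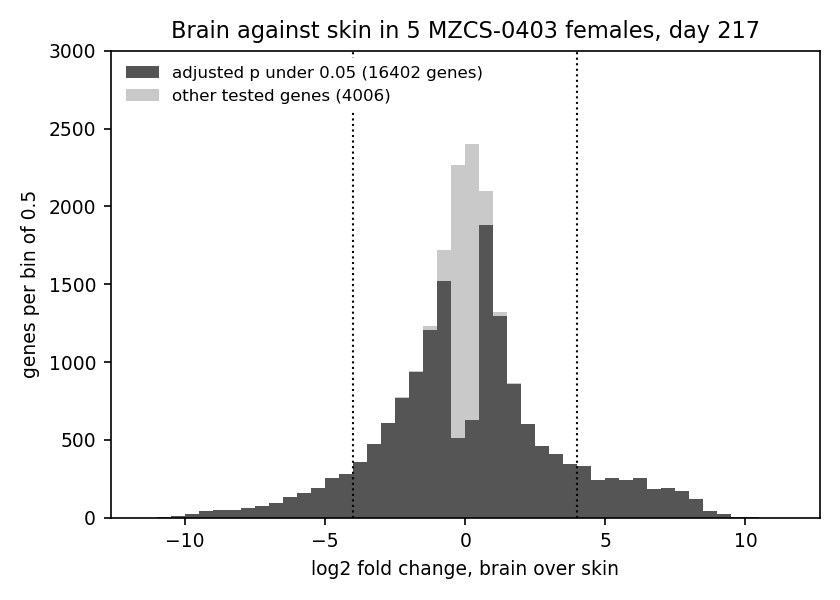
Number of tested genes (y axis, bins of 0.5) by log2 fold change of brain over skin (x axis) in the 5 MZCS-0403 females of day 217. Dark bars are the 16402 genes with an adjusted p under 0.05, light bars the other 4006, and the dotted lines mark 16-fold differences, beyond which lie 2082 called genes on the brain side and 1446 on the skin side.

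The 5 fish were alike in these differences. The brain and skin CPM did not overlap in 14437 genes (70.7% of those tested), with brain higher in 7597 and skin higher in 6840. Over all 20408 tested genes, brain was higher in 5 of 5 fish for 8534 and in 0 of 5 fish for 7750. Of the called genes, 96.2% had the same tissue higher in all 5 fish, a share that the call by a test within fish favours. The share called was larger for more abundant genes. It was 72.6%, 77.0%, 80.6%, 83.2% and 88.5% in 5 equal classes of genes from the lowest to the highest mean CPM. The median absolute log2 fold change did not follow that order, since it was 1.74 in the lowest class, 1.05 in the class below the highest and 1.47 in the highest.

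A gene that missed the threshold was often only poorly measured. Of the 4006 genes not called, 2628 had a 95% interval that reached beyond 0.5 on the log2 scale in one direction or both, so a moderate difference remained possible. For 1435 genes, the interval lay within 0.5 of 0. Of these, 57 were called and 1378 were not, and their median mean level was 25.5 CPM.

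The named genes were chosen for no overlap between the tissues and for a large difference in every fish. They show how far apart the tissues lay in such genes, while the median absolute log2 fold change over all tested genes was 1.32. Nfu_g_1_005326 had 98.5, 80.7, 79.7, 82.8 and 90.9 CPM in brain of fish 1 to 5, and 0.274, 0, 0.212, 0.127 and 0.113 CPM in skin. The skin values together rest on 12 counts. The means were 86.5 ± 7.98 CPM in brain and 0.145 ± 0.104 CPM in skin (SD, n = 5 each), which the fit gave as 9.17 log2 units higher in brain (SE 0.276; edgeR quasi-likelihood adjusted p = 1.61e-08). Every brain library was high and every skin library was near or at 0.

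Nfu_g_1_001968 had 167.5, 172.5, 239, 196.3 and 133.6 CPM in brain, against 0.548, 0.540, 0.689, 0.570 and 0.395 CPM in skin. The fitted log2 ratio of brain to skin was 8.36 (SE 0.135; edgeR adjusted p = 7.73e-09). The skin values rest on 45 counts over the 5 libraries, too few to order the fish in skin, and every brain value lay far above every skin value.

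In the opposite direction, Nfu_g_1_005737 had 0.0482, 0.305, 0.182, 0.202 and 0.261 CPM in brain of fish 1 to 5, against 128.9, 352.7, 310.7, 465.7 and 342.1 CPM in skin. The fitted log2 ratio of brain to skin was -10.61 (SE 0.206; edgeR adjusted p = 7.73e-09). The brain values rest on 42 counts over the 5 libraries, and all 5 skin values lay far above all 5 brain values.

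Nfu_g_1_002321 had 0.0482, 0.163, 0.0779, 0.227 and 0.156 CPM in brain, against 226.1, 164.9, 176, 189.4 and 196.5 CPM in skin. The fitted log2 ratio of brain to skin was -10.41 (SE 0.278; edgeR adjusted p = 1.17e-08). In the 71 other fish whose libraries went with their tissue labels, Nfu_g_1_005326 and Nfu_g_1_001968 were higher in brain in 71 of 71, and Nfu_g_1_005737 and Nfu_g_1_002321 were higher in brain in 0 of 71.

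**Figure D3:**
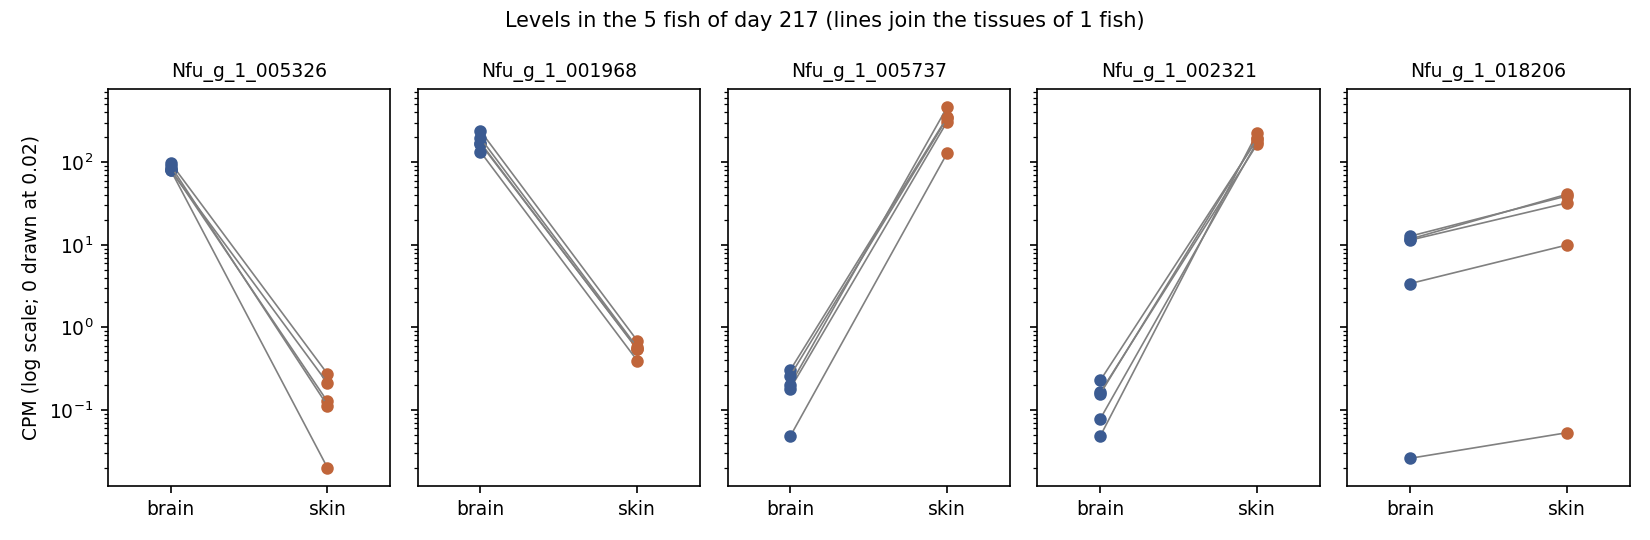
CPM (log scale, y axis) of the genes named for the tissue difference and of Nfu_g_1_018206, named for differences between fish, in brain (left) and skin (right) of the 5 fish of day 217. Lines join the tissues of 1 fish, and a value of 0 is drawn at 0.02. The first 4 panels have no overlap between tissues, which was a condition of their choice, while in the last panel fish 3 lies far below the other fish in both.

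Genes at the floor of one tissue were mainly brain genes. A gene was counted as restricted if each of the 5 libraries of one tissue had at most 3 counts and the other tissue averaged at least 5 CPM. This held for 205 genes of brain and 26 genes of skin. Only 5 of the 205 brain genes, and 0 of the 26 skin genes, had no count at all in any library of the other tissue. The skin number was the less stable of the pair. Leaving out fish 1 to 5 in turn gave 225, 225, 246, 235 and 229 genes of brain and 32, 43, 28, 28 and 40 genes of skin. With a mean of at least 1 CPM in place of 5 there were 528 genes of brain and 130 of skin, and with up to 10 counts allowed 663 of brain and 123 of skin. After TMM scaling 3 counts stand for a higher CPM in skin than in brain, and the part of this in the unequal numbers was not tested.

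As a group, the 205 brain genes were a small part of the RNA. They held 0.389% to 0.444% of brain counts and 0.000760% to 0.00103% of skin counts. The 26 skin genes held 0.0211% to 0.0290% of skin counts. The median level of a restricted gene was 10.02 CPM in its own tissue for the brain set and 10.2 CPM for the skin set. In the 71 other fish with libraries that went with their labels, 195 of the 205 brain genes were higher in brain in every fish, and 21 of the 26 skin genes were higher in skin in every fish. The other tissue reached 5 CPM in at least 1 of these fish for 15 of the brain genes and 5 of the skin genes. In these 71 fish, CPM were taken from total counts, without TMM scaling. At day 217 that scaling moved the median log2 fold change towards brain, and its part in these numbers was not tested.

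Expression varied more between fish in skin than in brain. The common biological coefficient of variation, edgeR's estimate of the spread between fish beyond counting error, was 0.196 over the 5 brain libraries and 0.293 over the 5 skin libraries. Of the 10135 genes with a mean of at least 5 CPM in both tissues, the SD of log2 CPM was larger in brain for 1452 and larger in skin for 8683. Its median was 0.119 in brain and 0.260 in skin. Depth differed between the tissues in the same direction, with fewer counts in skin, and its part in the spread was not tested.

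Few genes marked single fish in both tissues at once. The fish terms of the fit, which ask whether the 5 fish differ after the tissue difference is taken out, called 17 of the 20408 genes (0.0833%; edgeR quasi-likelihood test), and 1469 had an unadjusted p under 0.05. The test does not require a difference in each tissue. The called genes Nfu_g_1_017941 and Nfu_g_1_015303 averaged 0.0376 and 0.0953 CPM in skin. The number called by DESeq2 was 411 and by limma voom 72. Leaving out both libraries of 1 fish left 3 calls without fish 1, 8 without fish 2, 3 without fish 3, 10 without fish 4 and 8 without fish 5. Of the 17 genes, 15 had levels that correlated over the 5 fish between brain and skin at r above 0.9. The test itself favours such genes, since it sets the fish terms against what differs between the tissues of a fish. Of the same 17 genes, 7 averaged at least 5 CPM in both tissues.

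The first of these, Nfu_g_1_018206, was all but absent from 1 fish. It had 11.7, 11.4, 0.0260, 12.7 and 3.39 CPM in brain of fish 1 to 5, and 40.9, 32.1, 0.0530, 39.0 and 9.93 CPM in skin. Fish 3 stood near 0 in each tissue, fish 5 was intermediate in both, and the other fish were close to each other. The F statistic of the fish terms was 225 (adjusted p = 0.000333, edgeR). The call rests on fish 3: without it, F was 38.8 and the adjusted p was 0.117. The tissue difference of this gene was also called, with a log2 fold change of brain over skin of -1.61 (adjusted p = 3.82e-06, edgeR).

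Over the whole study, scaled together, Nfu_g_1_018206 was below 1 CPM in both tissues in 5 of 26 MZCS-0403 fish, in 0 of 36 GRZ-D fish and in 0 of 22 MZM-0403 fish. These 5 fish were fish 1 and 4 of the males at day 39, fish 4 of the males at day 147, fish 3 of the females at day 217 and fish 7 of the females at day 287. None of them exceeded 0.0399 CPM in the library labelled brain or 0.0530 CPM in the library labelled skin. Among the other MZCS-0403 fish the lowest levels were 1.67 CPM in brain and 4.91 CPM in skin. This count was made after the values of the gene had been seen, and the difference between strains was not tested.

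The tissue differences of day 217 were found again in other fish of the study. For each of the 71 other fish with libraries that went with their labels, the sign of brain minus skin was read for the same genes. These fish were kept because their whole profiles went with their labels, a choice that favours the same sign. The same choice underlies the counts over these 71 fish given above. Of the 3528 genes called at least 16-fold, 97.0% to 99.8% had the same sign, with a median over fish of 98.6%. Of all called genes 83.2% to 94.8% had the same sign, with a median of 89.8%. Of all tested genes the range was 77.5% to 88.4%. In the 8 fish at odds with their labels, 0.454% to 2.41% of the 16-fold genes had the same sign.

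The tissue difference was then compared with that of the older females of the same strain. With all 5 fish of day 287 as labelled, the difference between day 217 and day 287 in brain minus skin was called for 138 of 21126 genes (0.653%; edgeR interaction test). This rests on fish 7 of day 287, whose library labelled brain correlated with the brain profile at 0.351 and with the skin profile at 0.943. Without fish 7, 5367 of 21260 genes were called (25.2%). Fitted alone without fish 7, the day 287 females had 16507 of 20250 genes called between brain and skin (81.5%). Fish 7 is left out in the following values, a choice made after its profile had been seen.

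Brain minus skin at day 217 exceeded that at day 287 in 2825 genes and was below it in 2542. In 2460 of the called genes the tissue difference had the same direction at both ages and was larger at day 217. In 1417 it had the same direction and was smaller, and in 1490 the direction was opposite. Direction here is a sign alone, so the 1490 can include genes with little or no tissue difference at either age. A reversal was not tested for them. Of the 14155 genes called between brain and skin at both ages, each fitted alone, 97.1% had the same direction. Most of the differences between the ages were modest, with 2295 of at least 2-fold and 44 of at least 16-fold. Without composition scaling, 6774 genes were called and 81.2% of them were positive, against 52.6% with TMM.

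For most of these genes the larger change in mean level between the ages was in skin. The absolute change in mean log2 CPM between day 217 and day 287 was larger in skin than in brain for 4883 of the 5367 genes (91.0%), while over all tested genes skin had the larger change in 75.4%. The median absolute change of the called genes was 0.132 in brain and 0.816 in skin. Over all tested genes it was 0.148 in brain and 0.422 in skin. Skin levels also varied more between the fish of day 217, with a median SD of log2 CPM of 0.260 against 0.119 in brain. The median signed change of the called genes was -0.193 in skin and 0.00211 in brain. The part of this spread and this offset in the larger skin changes was not tested. A smaller set changed in brain. Brain was at least 4-fold higher at day 217 in 47 of the called genes and at least 4-fold lower in 9. In skin, 188 genes were at least 4-fold higher at day 217 and 48 at least 4-fold lower. The scatter of both changes shows a tall cloud along the skin axis and a sparse arm on the side of higher brain levels at day 217. Age cannot be told apart here from any batch of sampling, preparation or sequencing, since the labels give none.

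**Figure D4:**
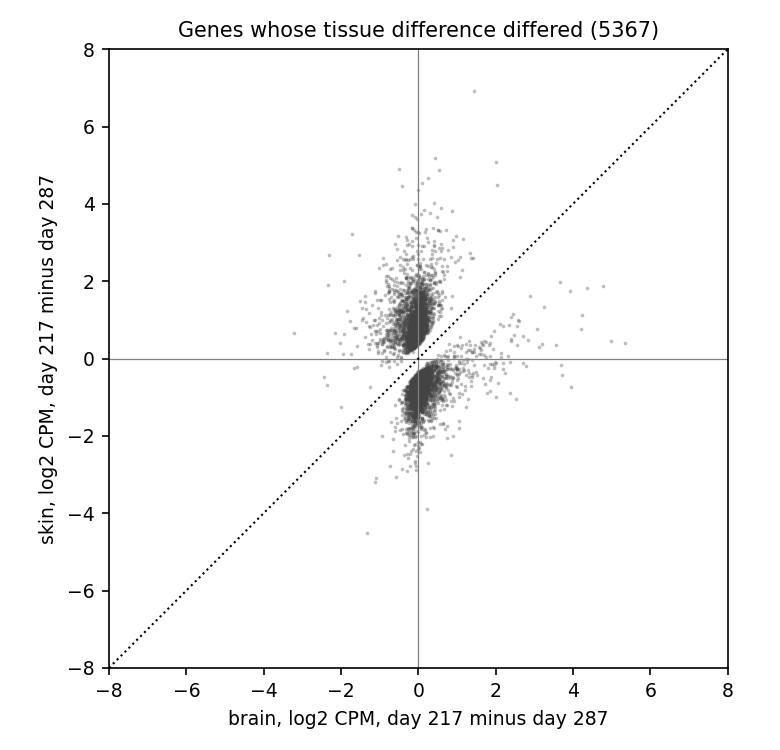
Change in mean log2 CPM from day 217 minus day 287 in brain (x axis) and in skin (y axis), 1 point for each of the 5367 genes whose brain minus skin difference differed between the ages without fish 7 of day 287. The dotted line marks equal change in both tissues, around which genes of this selection are absent by construction. Most points lie along the skin axis, with 47 genes at least 2 log2 units higher in brain at day 217 and 9 at least 2 units lower.

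In the genes named from this comparison, brain changed in a pair and skin in a pair. Nfu_g_1_015809 had 72.7, 60.1, 64.1, 72.6 and 46.9 CPM in brain at day 217, against 2.93, 3.50, 3.48 and 3.48 CPM in brain at day 287. Its skin levels averaged 19.9 ± 1.46 CPM at day 217 (n = 5) and 11.97 ± 3.29 CPM at day 287 (SD, n = 4). It was therefore higher in brain than in skin in every fish of day 217 and lower in brain in each of these 4 fish of day 287. Fish 7, left out here, had 22.8 CPM in the library labelled brain and 28.5 CPM in that labelled skin, scaled over the whole study. Its library labelled skin correlated with the brain profile at 0.957, so by profile this fish did not share the low brain level. The difference of the tissue differences was 3.45 on the log2 scale (SE 0.176, adjusted p = 9.76e-06, edgeR).

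Nfu_g_1_016415 averaged 107.5 ± 11.7 CPM in brain at day 217 and 18.7 ± 2.58 CPM in brain at day 287. In skin it averaged 7.09 ± 1.65 CPM at day 217 and 14.6 ± 3.37 CPM at day 287 (SD, n = 5 and 4). The within-fish log2 differences of brain minus skin ran from 3.41 to 4.57 at day 217 and from -0.16 to 0.85 at day 287. The difference was 3.56 (SE 0.271, adjusted p = 0.000148, edgeR). In fish 7, left out here, the library labelled skin but nearer to the brain profile had 62.3 CPM of this gene, scaled over the whole study.

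Nfu_g_1_004543 had 76.7, 87.1, 91.8, 142.2 and 167.6 CPM in skin at day 217, against 3.35, 3.37, 3.59 and 4.002 CPM in skin at day 287. In brain it had at most 5 counts in any library of day 217 and at most 7 in any library of day 287. The difference was -5.76 (SE 0.510, adjusted p = 0.000228, edgeR).

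Nfu_g_1_005737, the skin gene described above, averaged 331.5 ± 128 CPM in skin at day 217 (n = 5) and 2.70 ± 1.19 CPM in skin at day 287 (SD, n = 4). Its difference was -4.26 (SE 1.33, adjusted p = 0.0371, edgeR). The 4 brain libraries of day 287 held 3, 0, 0 and 1 counts of it, so the fitted value rests on very few counts and is no bound. The call was lost in the fit without the fish block (adjusted p = 0.131), without fish 1 (0.0511) or fish 3 (0.0579) of day 217, and without fish 3 (0.405) or fish 6 (0.0878) of day 287.

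The other ages of MZCS-0403 place these levels, in values scaled over the whole study. Nfu_g_1_015809 in brain had 77.2 to 93.9 CPM in the 6 males of day 21, 22.2 to 58.6 CPM in the 4 males of day 39 and 4.74 to 18.6 CPM in the 3 males of day 147. It had 13.2 CPM in the only female of day 147, 51.0 to 80.1 CPM in the 5 females of day 217, and 5.12 and 14.6 CPM in the 2 males of day 287. The females of day 217 were thus above every MZCS-0403 fish of day 147 and of day 287, and no order by age holds over the series. Nfu_g_1_016415 in brain had the same feature, with 24.5 to 49.4 CPM in the males of day 147, 97.8 to 132.3 CPM in the females of day 217 and 31.4 and 47.2 CPM in the males of day 287.

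Nfu_g_1_004543 in skin had 0.676 to 2.41 CPM at day 21, 127.2 to 213.6 CPM at day 39 and 198.3 to 662.4 CPM in the males of day 147. It had 72.3 to 157.8 CPM in the females of day 217, and 4.67 and 5.16 CPM in the males of day 287. Nfu_g_1_005737 in skin had 0.592 to 2.72 CPM at day 21, 49.7 to 137.3 CPM at day 39, 43.8 to 306.3 CPM in the males of day 147, 124.7 to 474.8 CPM in the females of day 217, and 2.22 and 2.29 CPM in the males of day 287. Both skin genes were low at the youngest and the oldest age sampled in this strain and high between them.

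**Figure D5:**
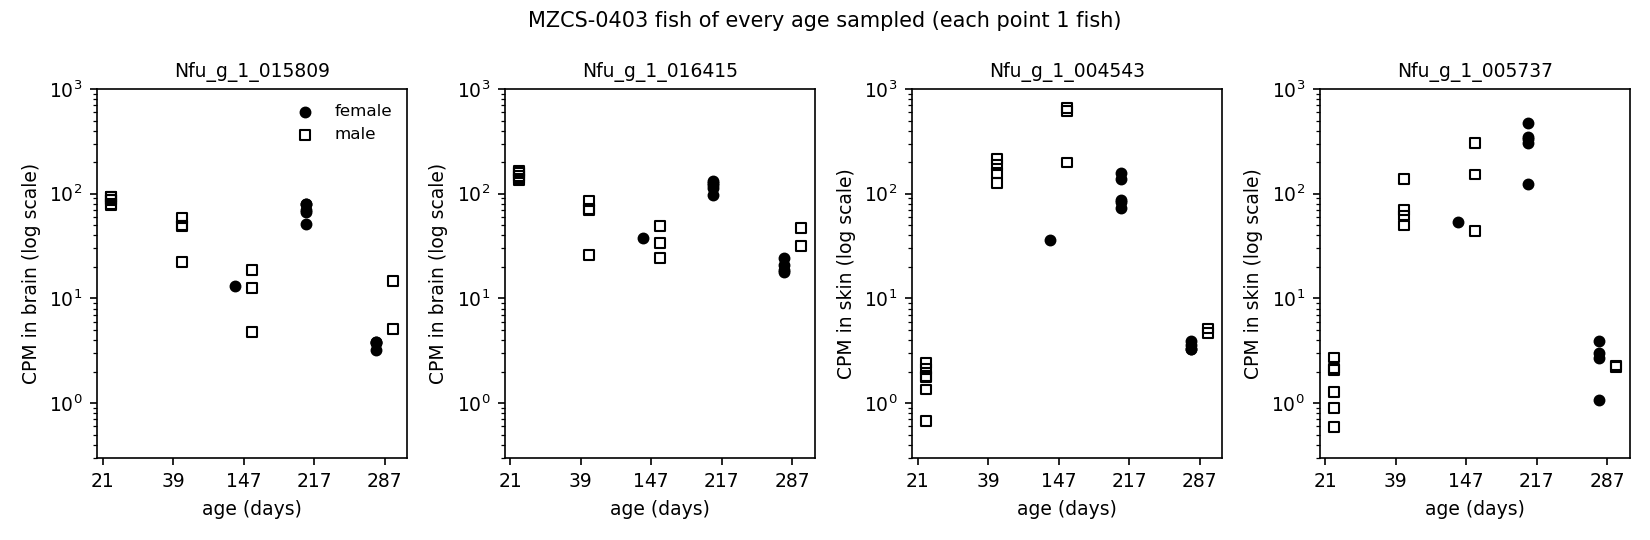
CPM (log scale, y axis) by age in days (x axis, evenly spaced ages) of the genes named for the difference between day 217 and day 287, in brain for the left pair of panels and in skin for the right pair. Each point is 1 of the 25 MZCS-0403 fish whose libraries went with their labels, filled circles are females and open squares males, and values were scaled over the whole study. The day 217 females lie above the day 147 and day 287 fish in both brain panels.

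Against the MZM-0403 females of day 147, which differ in strain and in age, the tissue difference differed in 8232 of 21309 genes (38.6%; edgeR interaction test). Brain minus skin was higher in the MZCS-0403 females for 4202 and lower for 4030. This split depends on the scaling: 51% of the calls were positive under TMM, 70.1% under scaling to total counts, 44.9% under DESeq2's size factors (3708 higher and 4545 lower) and 44.8% with DESeq2 itself. The larger change was in skin for 5761 of the called genes (70.0%), against 62.5% over all tested genes. Of the called genes, 61 were at least 4-fold higher in brain of the MZCS-0403 females and 664 at least 4-fold lower. In skin these numbers were 285 and 386. The brain library of fish 1 of the MZM-0403 females correlated with the brain profile at 0.872 and with the skin profile at 0.523. The other brain libraries of that group had 0.935 to 0.947 and 0.322 to 0.383. The part of this library in the numbers for brain was not tested. Strain and age cannot be told apart in this comparison.

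The named genes followed both routes. Nfu_g_1_005293 had 28.1 to 35.8 CPM in brain of the MZCS-0403 females and 23.5 to 29.8 CPM in brain of the MZM-0403 females. In skin it had 1.35 to 3.03 CPM in the MZCS-0403 females and 12.3 to 32.3 CPM in the MZM-0403 females, with no overlap. The difference of the tissue differences was 3.55 (SE 0.270, adjusted p = 7.51e-06, edgeR). Scaled over the whole study, skin Nfu_g_1_005293 had 2.72 to 4.08 CPM in MZM-0403 males of day 287. In MZCS-0403 males it had 4.66 to 30.9 CPM at day 21, 11.7 to 15.6 CPM at day 39 and 1.02 to 2.34 CPM at day 147. Its skin level thus did not separate these strains in every group. Nfu_g_1_012508 averaged 10.3 ± 1.27 CPM in brain of the MZCS-0403 females and 9.07 ± 0.377 CPM in brain of the MZM-0403 females. Its skin levels were 0.146 ± 0.0956 CPM in the MZCS-0403 females and 2.93 ± 0.986 CPM in the MZM-0403 females (SD, n = 5 each), for a difference of 4.46 (SE 0.472, adjusted p = 6.91e-05, edgeR). The skin libraries of the MZCS-0403 females held 3, 4, 3, 2 and 0 counts of it, so the fitted size rests on very few counts and is no bound.

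The genes with a more negative difference were nearly silent in brain at day 217. Nfu_g_1_008128 had 0.0537, 0.113, 0.116, 0.139 and 0.0859 CPM in brain of the MZCS-0403 females, against 12.96, 10.2, 11.3, 9.30 and 15.6 CPM in brain of the MZM-0403 females. Its skin levels averaged 9.19 ± 0.700 CPM in the MZCS-0403 females and 7.27 ± 1.72 CPM in the MZM-0403 females (SD, n = 5 each). The difference was -7.16 (SE 0.226, adjusted p = 2.43e-08, edgeR), a size that rests on 2, 5, 4, 5 and 3 counts in brain of the MZCS-0403 females. Nfu_g_1_008869 averaged 0.388 ± 0.0767 CPM in brain of the MZCS-0403 females and 28.2 ± 2.80 CPM in brain of the MZM-0403 females. In skin it averaged 25.4 ± 4.03 CPM in the MZCS-0403 females and 12.5 ± 5.57 CPM in the MZM-0403 females, for a difference of -7.27 (SE 0.296, adjusted p = 1.02e-07, edgeR).

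Low brain levels of this last pair were shared by the other older MZCS-0403 fish. In values scaled over the whole study, brain Nfu_g_1_008128 had 2.16 to 4.60 CPM at day 21 and 4.43 to 18.9 CPM at day 39. It had 0.0426 to 0.273 CPM in the 3 males of day 147, 0.0564 to 0.145 CPM in the females of day 217, and 0.220 and 0.2995 CPM in the 2 males of day 287. Brain Nfu_g_1_008869 had 7.46 to 14.9 CPM at day 21, 8.78 to 35.9 CPM at day 39, 0.262 to 0.511 CPM in the males of day 147, 0.269 to 0.479 CPM in the females of day 217, and 0.565 and 1.09 CPM in the males of day 287. In MZM-0403 males of day 287 the brain levels were 14.8 to 27.9 CPM for Nfu_g_1_008128 and 37.2 to 42.0 CPM for Nfu_g_1_008869. Low levels were not limited to MZCS-0403. GRZ-D males of day 147 had 0.370 to 0.842 CPM of Nfu_g_1_008128 and 1.58 to 2.45 CPM of Nfu_g_1_008869 in brain, and the lowest MZM-0403 male of day 35 had 0.752 and 1.54 CPM. The groups differ in age and sex as well, and no test was run on these levels.

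Against the MZCS-0403 males of day 21, which differ in sex and in age, the tissue difference differed in 7893 of 21212 genes (37.2%; edgeR interaction test), higher at day 217 for 4240 and lower for 3653. The larger change was in skin for 5466 of them (69.3%), against 62.0% over all tested genes. In brain, 53 of the called genes were at least 4-fold higher in the day 217 females and 373 at least 4-fold lower. In skin, 462 were at least 4-fold higher and 351 at least 4-fold lower. Sex and age cannot be told apart in this comparison.

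The tissue differences nevertheless had much in common across these groups when each was fitted alone. Of the 14155 genes called both at day 217 and in the day 287 females without fish 7, 97.1% had the same direction. The share was 93.5% of 13146 genes for the MZM-0403 females and 95.3% of 13391 genes for the males of day 21. The log2 fold changes of brain over skin correlated across genes at r = 0.960, 0.916 and 0.923 in the same order of groups, over genes that are not independent replicates.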

How the data were processed

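The authors deposited 1 table of raw read counts per gene for all 168 libraries, and every column matched 1 sample. The submitters' processing notes name bcl2fastq 1.8.4, STAR 2.5.1b and featureCounts 1.5.0, while the genome build, the annotation and the strand setting are not given in the sources used here. Reads shared by near-identical or overlapping genes could not be traced. Libraries were grouped by the strain, sex, age and tissue of their labels.

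Counts were tested in R 4.3.3 with edgeR 4.0.16 (TMM scaling, edgeR's filter by group at a minimum count of 10, robust quasi-likelihood F-test, two-sided, Benjamini-Hochberg adjustment over all genes tested, threshold 0.05). Only the groups compared entered a fit. Fish was a block, since the labels give both tissues of each specimen, and deviations from the tissue means correlated at 0.0948 to 0.223 in the 5 same-fish pairs and at -0.110 to 0.0626 in the 20 other pairs. Differences of tissue differences were interaction terms. SE was derived as the absolute log2 fold change over the root of F. CPM of genes use TMM-scaled library sizes of the libraries in that fit, so they shift slightly between comparisons. The restricted genes were read in the 71 other fish from CPM of total counts instead. Log2 CPM has a prior count of 2, which the fitted log2 fold changes do not use. Single values per library had an exact sign-flip permutation test over fish. Floors allow for counting error alone, since the reads carry no molecular identifiers. P-values of the fits rest on the spread between fish within the labelled groups compared. That is 1 group of fish for brain against skin and a pair of groups for the interaction terms.

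Named genes were the first 2 in each direction by the smallest within-fish difference, among called genes without overlap and with at least 5 CPM in the higher tissue. For differences between groups they were the first 2 in each direction by the gap between the groups' within-fish differences, among called genes without overlap of these differences and with at least 5 CPM in one tissue of one group. For fish differences it was the first by F with at least 5 CPM in both tissues. The comparisons, lists and members were chosen with earlier results of these data known. The 11 lists of marker and pathway genes use symbols and could not be applied. Alternatives were other scalings, no filter, DESeq2 1.42.0, limma 3.58.1 voom with quality weights, no fish block, and each fish left out. The method was tested on simulated counts in which few genes were changed, as many up as down. The simulated tissue difference was thus unlike the one here, where most genes differed.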

Additional observations from a re-analysis of the deposited data

Results flagged for a closer look

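The difference between groups in the tissue difference was itself tested and differed for 138 genes between MZCS-0403 females of day 217 and of day 287 as labelled, for 5367 genes without fish 7 of day 287, for 8232 genes between day 217 and the MZM-0403 females of day 147, and for 7893 genes between day 217 and the MZCS-0403 males of day 21 (edgeR interaction tests).

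Of the named genes, Nfu_g_1_015809 had a difference of 3.45, Nfu_g_1_016415 of 3.56, Nfu_g_1_004543 of -5.76 and Nfu_g_1_005737 of -4.26 on the log2 scale between day 217 and day 287 without fish 7. Between day 217 and the MZM-0403 females of day 147, the difference was 3.55 for Nfu_g_1_005293, 4.46 for Nfu_g_1_012508, -7.16 for Nfu_g_1_008128 and -7.27 for Nfu_g_1_008869.

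In brain at day 287 without fish 7, Nfu_g_1_015809 was 2.93 CPM in fish 3, apart from the other fish kept, at 3.48 to 3.50 CPM. Fish 3 was the 1 such sample among 48 groups of values examined, and chance marks about 1 group in 20. Fish 7, left out of this group for its profile, lay further off. It had 22.8 CPM in the library labelled brain and 28.5 CPM in that labelled skin, scaled over the whole study.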

How the results depend on the processing

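With the libraries unpaired, that is with no replicate block, the exact permutation p was 0.00794 for the difference in genes above 1 CPM (1966.2), in the share of the 10 most counted genes (-13.6 percentage points) and in the number of genes that hold 50% of the counts (1140.2). This p is the smallest that 5 libraries against 5 can give, and it sets aside that both tissues came from the same fish. The restricted genes numbered 786 in both tissues together with at most 10 counts allowed, 658 with a mean of at least 1 CPM, and 257 to 274 with 1 fish left out, where the skin genes alone ran from 28 to 43, against 26 with all fish. The fish terms called 53 genes with no filter on low counts, 411 with DESeq2, 72 with limma voom, and 3 to 10 with 1 fish left out. The comparison with day 287 as labelled called 479 genes without composition scaling, 41 without the filter, 2152 with DESeq2, 6895 with limma voom, 2294 with no replicate block, and 9 to 5367 with 1 fish left out. The 5367 came without fish 7 of day 287, while leaving out any other fish of that comparison gave 9 to 223. What caused the other changes was not tested. The counts of genes called in brain against skin stayed within 15602 to 17832 over 11 alternatives, those without fish 7 within 3613 to 6787, those against MZM-0403 within 6969 to 9441 and those against day 21 within 6704 to 9389. Under DESeq2's size factors, 44.9% of the calls against MZM-0403 were positive, and under scaling to total counts 60.1% of those against day 21 were, with 51% and 53.7% under TMM. The fish block changed the call of 1 named gene, Nfu_g_1_005737 against day 287 without fish 7 (adjusted p = 0.131 without the block). Values near 3 counts per library limit what can be seen in either tissue.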
